A study of Mus musculus with 15 samples.

Results

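The enzymes that build and desaturate fatty acids were followed in mouse induced renal tubular epithelial cells (iRECs) grown in 4 microenvironments and on plates. The 10 genes were taken by symbol from the 27179 genes of the authors' deposited tables: Acly, Acaca, Fasn, Scd1, Scd2, Elovl5, Elovl6, Fads1, Fads2 and Fa2h. iRECs are fibroblasts that were converted to tubule-like cells by forced expression of transcription factors, some of which are among the renal markers used below. The control group, 2D, was grown on plates in Renal Epithelial Growth Medium (REGM) and dispensed by hand. The Matrigel group was grown in 3D in REGM with Matrigel, a basement membrane extract, the fibrin group in REGM with fibrin, the polymer of blood clots, and the collagen I group in REGM with the main fibrillar collagen, all dispensed by hand. The printed group was dispensed by inkjet bioprinting into fibrin and collagen I, while the name of its table mentions collagen only. The labels also give guided growth for the printed group and self assembly for all other groups. Each of the 5 groups had 3 libraries, from passages 35, 48 and 53 of 1 line, made in parallel from a shared pool of cells and harvested on day 7, so they are cultures of 1 line and not separate animals. What the tables hold is 1 mean level and 1 fold change per gene, with no value for a single library, so values by library, their overlap and a result without 1 library could not be given.

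Fatty acid synthesis starts from citrate, which is split in the cytosol into acetyl-CoA, carboxylated to malonyl-CoA and joined into palmitate. Elongases then add carbon pairs, and desaturases place double bonds, which together set how fluid membranes are and which lipids can be stored. Most of these genes are known targets of the transcription factor SREBP1, many also of the sterol-sensing receptors LXR and of the sugar-sensing factor ChREBP. The kidney tubule is best known for burning fatty acids, and 2-hydroxylated sphingolipids are known from myelin, skin and renal epithelium.

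The base mean, the mean over the 6 libraries of a table of read counts divided by size factors, ran in the authors' deposited tables from 92.6 for Fa2h with fibrin to 105054 for Scd2 with printing. All 10 genes had an adjusted p in all 4 tables. Base means summed to 42789952 to 45388657 normalized reads per table, the depth of single libraries is unknown, and the median standard error of genes with a base mean of at least 100 was 0.19 to 0.23 on the log2 scale. The 11 markers of renal epithelium ranged in base mean from 220 for Krt8 in the collagen I table to 64782 for Cdh16, the kidney-specific cadherin, in the printed table, as the authors deposited them. Of the markers of other cells, the 9 of fibroblasts summed to 217 to 325 per table. Those of adipocytes, also 9, summed to 867 to 1186, of which the lipid droplet gene Cidec made up 608 to 737. Lpl lay at 119 to 277 and Pparg at 123 to 161. Lep, Retn, Cfd and Fabp4 lay at 6.79 or below, and Adipoq and Plin1 at 1.29 or below.

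Promoter sequence from RefSeq (GRCm38.p6) was at hand for 6 of the 10 genes, namely Acly, Acaca, Fasn, Elovl5, Elovl6 and Fads2. The 250 bases before the start of the transcript that the table uses are shown for both elongases, of which Elovl6 rose in 2 gels and Elovl5 in none, and for Fasn, the central enzyme. Capitals mark the letters CCAAT (the NF-Y box) and CACGTG (an E-box), on either strand. The windows lie on the forward strand for Elovl6 (chr3:129532136-129532385) and Elovl5 (chr9:77917115-77917364) and on the reverse strand for Fasn (chr11:120824548-120824797). The start used for Fasn lies 619 bases inside the gene's RefSeq bounds and that used for Acaca 65803 bases inside, so these 2 windows lie within their genes, while the other 4 end where the gene begins.
Elovl6: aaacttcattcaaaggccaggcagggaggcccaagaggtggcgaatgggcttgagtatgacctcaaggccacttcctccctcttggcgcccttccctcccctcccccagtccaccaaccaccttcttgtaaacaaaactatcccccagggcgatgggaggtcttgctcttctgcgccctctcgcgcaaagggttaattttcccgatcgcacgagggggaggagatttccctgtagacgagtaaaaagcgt
Elovl5: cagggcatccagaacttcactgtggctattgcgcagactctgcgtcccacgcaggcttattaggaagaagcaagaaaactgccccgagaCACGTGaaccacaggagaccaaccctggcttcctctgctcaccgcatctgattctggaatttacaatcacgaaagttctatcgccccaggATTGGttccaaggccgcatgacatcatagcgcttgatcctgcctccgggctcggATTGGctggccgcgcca
Fasn: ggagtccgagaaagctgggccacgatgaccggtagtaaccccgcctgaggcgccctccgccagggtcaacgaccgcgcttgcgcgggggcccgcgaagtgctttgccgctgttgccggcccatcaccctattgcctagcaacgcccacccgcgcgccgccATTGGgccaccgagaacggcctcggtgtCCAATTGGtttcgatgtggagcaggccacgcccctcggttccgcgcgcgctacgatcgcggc

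Fasn held 3 NF-Y boxes, at 90 to 86, 62 to 58 and 59 to 55 bases before the start, and the last pair overlaps. Elovl5 held 2, at 71 to 67 and 17 to 13 bases, and an E-box at 161 to 156 bases before the start. In the Elovl6 window none of the letters searched were found. An NF-Y box was in 2 of the 6 windows and in 33.8% of all 32851 promoter windows of this length, and the E-box in 1 of the 6 and in 6.02% of all. The core of the sterol regulatory element, TCACNCCAC on either strand, was in 1.05% of all windows and in 0 of the 6, which include the 2 inside their genes. The Sp1 box GGGCGG was in 32.7% of all windows and in 2 of the 6, those of Acly and Fads2. These are matches of letters in a short window and say nothing of binding.

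Levels were first compared between the genes in 2D, per length of the transcript. The level in 2D was computed from the base mean and fold change of each of the 4 tables, which share the same 2D libraries, and is in normalized reads per kb. The deposited fold changes are shrunken towards 0, since those of genes with a base mean under 1 reached at most 0.079 to 0.13 in size per table, so the computed level in 2D is too high for a gene above 0. Scd2, a stearoyl-CoA desaturase that makes monounsaturated fatty acids, was highest at a median of 13055 (12617 to 14153 over the tables). Acly, which splits citrate, followed at 5515 (5307 to 5647). The desaturases of polyunsaturated fatty acids came next, the delta-5 enzyme Fads1 at 3670 and the delta-6 enzyme Fads2 at 2794.

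Scd1, the other main stearoyl-CoA desaturase, lay at 2016 (1955 to 2233) and Fasn, the fatty acid synthase, at 1943 (1895 to 2097), so the ranges of these neighbours overlapped. Elovl5, the elongase of polyunsaturated fatty acids, lay at 1616. Acaca, which makes malonyl-CoA, was at 491, and Elovl6, which elongates palmitate to stearate, at 274. Fa2h, the fatty acid 2-hydroxylase, was lowest at 31.6, with the widest range in proportion to its level, 26.9 to 52.4. The level of Scd2 was thus 6.47 times that of Scd1 and 414 times that of Fa2h, in medians per kb over the tables.

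**Figure D1:**
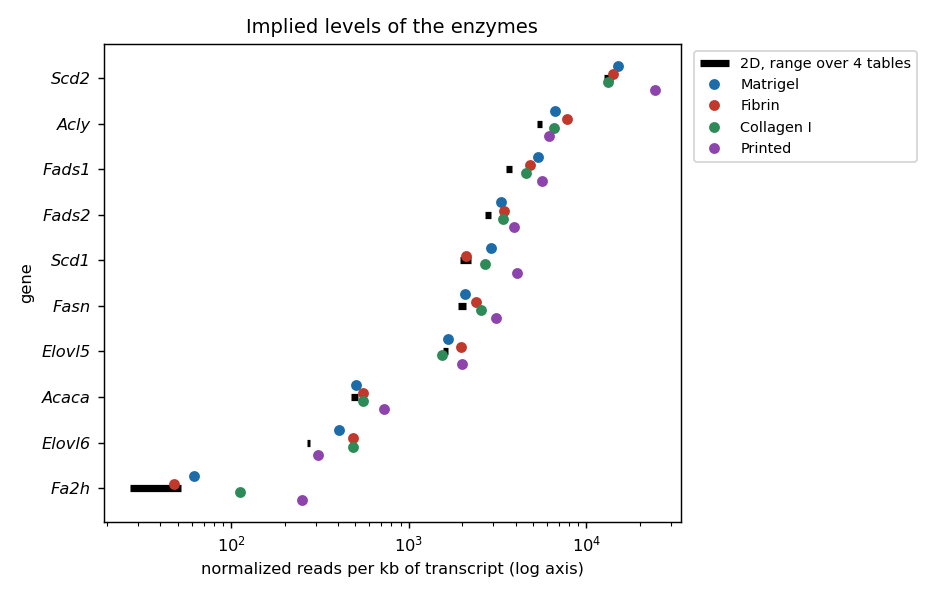
Levels of the 10 genes per kb of transcript, on a log axis in normalized reads. Black bars give the range of the level in 2D over the 4 tables and points the level in each microenvironment; Scd2 is at the top, Fa2h at the bottom, and the printed point of Fa2h (252) lies farthest from its bar (26.9 to 52.4).

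Against 2D, 4 of the 10 genes rose in at least 1 microenvironment and none fell in any. Of the 14020 genes with an adjusted p in all 4 tables, 10.9% rose and 6.76% fell in at least 1. A gene is said to have risen where the authors' adjusted p was under 0.05. Fa2h rose in Matrigel, collagen I and the printed cultures, Scd1 in Matrigel and the printed cultures, Elovl6 in fibrin and collagen I, and Scd2 in the printed cultures. Acly, Acaca, Fasn, Fads1, Fads2 and Elovl5 passed in none. At an unadjusted p under 0.05 none of the 10 was lower in any table either (authors' Wald test, DESeq2). All 4 tables share the same 2D libraries, so a rise in several of them, here and below, is not an independent repeat. Fold changes are given on the log2 scale, positive where the microenvironment was above 2D, each followed by ± and the authors' standard error.

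**Figure D2:**
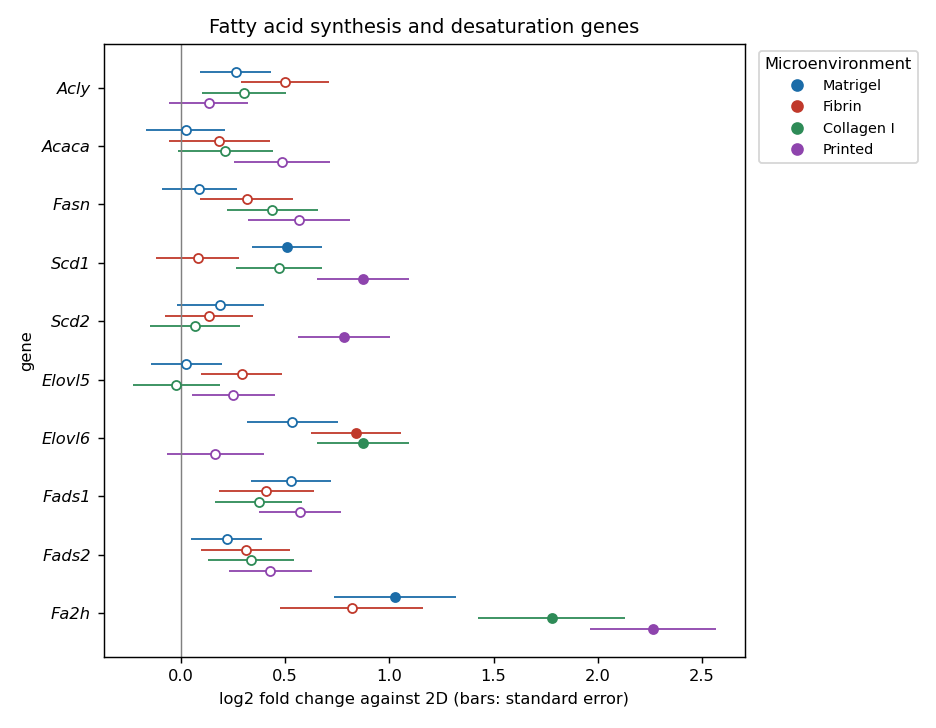
Log2 fold change against 2D of the 10 genes, with the standard error as bars; filled points have an adjusted p under 0.05 in the authors' deposited tables. Fa2h reaches 2.26 in the printed cultures, and Elovl6 is at 0.84 with fibrin, 0.87 with collagen I and 0.17 in the printed cultures.

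In Matrigel 2 of the 10 genes rose, Fa2h and Scd1, where 6.36% of 14602 genes with an adjusted p changed and 4.03% rose. None fell, against 2.32% of all. The median of the 10 was log2 0.24, against -0.01 over all genes with a p-value, and all 10 lay above 0, as did 48.8% of all genes. When the null spread of the Wald statistics was estimated from the middle of their distribution (an empirical null), neither call remained, with adjusted p = 0.14 for Fa2h and 0.28 for Scd1. Of the 11 renal markers, the adhesion genes Cdh1 (0.90 ± 0.16) and Epcam (0.87 ± 0.16) rose and none fell, and of the immune markers Csf1r fell (-1.31 ± 0.23) in the authors' deposited table. Their part was not tested.

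With fibrin 1 gene rose, Elovl6, where 8.3% of 14636 genes changed, 5.19% rising and 3.11% falling. The median of the 10 was log2 0.31 against 0.00 over all genes, and all 10 lay above 0, against 50.1% of all. Under the empirical null Elovl6 had adjusted p = 0.12. Of the 11 renal epithelial markers 2 fell, among them the transcription factor gene Pax8 at -0.63 ± 0.19 in the authors' deposited table, and none rose. Of the 9 fibroblast markers, 2 fell, Col1a1 (-1.49 ± 0.33 in the authors' deposited table) and Pdgfra. Their part in the result was not tested.

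With collagen I 2 genes rose, Fa2h and Elovl6, where 11.2% of 14064 genes changed, 6.51% rising and 4.65% falling. The median was log2 0.36 against 0.00 over all genes, and 9 of the 10 lay above 0, against 50.7% of all. The exception, Elovl5, was at -0.02 ± 0.21 in the authors' deposited table. Under the empirical null neither call remained, with adjusted p = 0.090 for Fa2h and 0.31 for Elovl6. Of the renal epithelial markers 3 of 11 fell here, among them Pax8 and Krt8, and none rose. The fibroblast marker Col1a1 fell (-2.35 ± 0.33), as did the immune marker Csf1r (-1.50 ± 0.27), in the authors' deposited table. Their part was not tested.

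In the printed cultures 3 genes rose, Fa2h, Scd1 and Scd2, where 3.18% of 15116 genes changed, 2.51% rising and 0.675% falling. The median was log2 0.53 against 0.01 over all genes, and all 10 lay above 0, against 52.2% of all. Under the empirical null Fa2h and Scd1 still passed, while Scd2 had adjusted p = 0.073. Of the 7 immune markers, 2 rose here, the lysosomal protein gene Cd68 at 1.60 ± 0.23 and the growth factor receptor gene Csf1r at 0.71 ± 0.22 in the authors' deposited table. The summed level of the list was 1020 in 2D and 2319 in the printed cultures, with the pan-leukocyte gene Ptprc at a base mean of 1.33, the macrophage gene Adgre1 at 0.58, and the T cell gene Cd3e listed at 0. In the 3 gels that sum was 468 to 692, against 880 to 892 in 2D by their tables. Of the adipocyte markers, the lipase gene Lpl rose in print (0.98 ± 0.27 in the authors' deposited table). The part of these markers in the results was not tested.

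Citrate cleavage and the making of palmitate come first in the pathway. Acly (chromosome 11, 100476352 to 100528000, GRCm38) was at log2 0.26 ± 0.17 in Matrigel, 0.50 ± 0.21 with fibrin, 0.30 ± 0.20 with collagen I and 0.13 ± 0.19 in the printed cultures in the authors' deposited tables. Its highest value was with fibrin, with adjusted p = 0.13. A change of log2 0.60 would have been needed there to pass at its standard error.

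Acaca (chromosome 11, 84129635 to 84401651) was at log2 0.02 ± 0.19, 0.19 ± 0.24, 0.21 ± 0.23 and 0.48 ± 0.23 in Matrigel, fibrin, collagen I and printed cultures, per the authors' deposited tables. Fasn (chromosome 11, 120805958 to 120825166) was at log2 0.09 ± 0.18, 0.32 ± 0.22, 0.44 ± 0.22 and 0.57 ± 0.24 in the same order in the authors' deposited tables. Both were highest in the printed cultures, where the 95% intervals ran from 0.03 to 0.94 for Acaca and from 0.09 to 1.04 for Fasn, and the adjusted p was 0.36 and 0.26. Acacb, the second carboxylase, known for a product that restrains fatty acid oxidation, rose in the printed cultures by log2 1.17 ± 0.25 in the authors' deposited table (adjusted p = 0.00052). It lay at -0.37 ± 0.26 with fibrin and -0.33 ± 0.26 with collagen I in the authors' deposited tables.

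Stearoyl-CoA desaturases place the first double bond. Scd1 (chromosome 19, 44394450 to 44407709) rose in Matrigel, log2 0.51 ± 0.17 or 1.42-fold with adjusted p = 0.042 in the authors' deposited table. In the printed cultures it rose by log2 0.87 ± 0.22, 1.83-fold, with adjusted p = 0.0054 in the authors' deposited table. With collagen I it was at 0.47 ± 0.21 (adjusted p = 0.13) and with fibrin at 0.08 ± 0.20 (adjusted p = 0.91) in the authors' deposited tables. The Matrigel call was close to the threshold: its adjusted p was 0.056 when all genes with a p-value were adjusted together and 0.052 when fold changes were centred on their median.

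Scd2 (chromosome 19, 44293676 to 44306864) rose in the printed cultures, log2 0.78 ± 0.22 or 1.72-fold with adjusted p = 0.018 in the authors' deposited table. Its other values, none of which passed, were 0.19 ± 0.21 in Matrigel, 0.14 ± 0.21 with fibrin and 0.07 ± 0.22 with collagen I in the authors' deposited tables. In normalized reads per kb, the printed table implies a level of 24364 for Scd2, against 14153 in 2D, and of 4086 for Scd1, against 2233 in 2D. Both genes lie in a cluster with Scd3 and Scd4, 87.6 kb apart. Of the 50-base windows in their GENCODE transcripts, 4.56% of those of Scd1 and 3.75% of those of Scd2 occur in another gene of the family, so a small part of their reads could be assigned to more than 1 gene. The neighbour Scd4 is reported here because of its position in the cluster. Scd4 was at log2 1.0 ± 0.32 in the printed cultures, at a base mean of 76.7, and did not pass (adjusted p = 0.057) in the authors' deposited table.

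Elongases act next. Elovl6 (chromosome 3, 129532386 to 129638495) rose with fibrin, log2 0.84 ± 0.22 or 1.79-fold with adjusted p = 0.0032 in the authors' deposited table. With collagen I it rose by log2 0.87 ± 0.22, 1.83-fold, with adjusted p = 0.0019 in the authors' deposited table. In Matrigel it was at 0.54 ± 0.22 (adjusted p = 0.14) and in the printed cultures at 0.17 ± 0.23 (adjusted p = 0.92) in the authors' deposited tables. A gene annotated antisense to Elovl6 and another on its own strand overlap it. Acaca is overlapped by a protein-coding gene on the opposite strand and by another gene on its own strand. The strand setting of the counting is not given in the sources used here.

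Elovl5 (chromosome 9, 77917365 to 77984519) had values of log2 0.03 ± 0.17, 0.29 ± 0.19, -0.02 ± 0.21 and 0.25 ± 0.20 in Matrigel, fibrin, collagen I and printed cultures in the authors' deposited tables. Each 95% interval included 0. The widest upper bound was log2 0.67, with fibrin.

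Fads1 and Fads2 make arachidonic and docosahexaenoic acid precursors, lie 81.4 kb apart on chromosome 19 and passed in none of the tables. Fads1 (10182877 to 10196874) was at log2 0.53 ± 0.19, 0.41 ± 0.23, 0.37 ± 0.21 and 0.57 ± 0.20 in Matrigel, fibrin, collagen I and printed cultures in the authors' deposited tables. In Matrigel and the printed cultures its adjusted p was 0.079 and 0.090, the nearest to the threshold among the values of the 10 genes that did not pass. Fads2 (10062765 to 10101503) was at log2 0.22 ± 0.17, 0.31 ± 0.21, 0.34 ± 0.20 and 0.43 ± 0.20 in the same order in the authors' deposited tables. The third gene of that cluster, Fads3, is reported here because of its position. Fads3 was below 0 in all of the authors' deposited tables, from -0.08 ± 0.23 in the printed cultures to -0.51 ± 0.22 with collagen I, and did not pass.

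Fa2h (chromosome 8, 111345138 to 111393821) had the highest fold change of the 10 genes in all tables but that of fibrin, where Elovl6 was higher. In the printed cultures it rose by log2 2.26 ± 0.30, 4.80-fold, with adjusted p = 2.1e-10, and had the 6th smallest p of 19578 genes in the authors' deposited table. With collagen I it rose by log2 1.78 ± 0.35, 3.43-fold, with adjusted p = 2.9e-05 in the authors' deposited table. In Matrigel it rose by log2 1.03 ± 0.29, 2.04-fold, with adjusted p = 0.011 in the authors' deposited table. With fibrin it was at 0.82 ± 0.34 with adjusted p = 0.13 in the authors' deposited table, where log2 0.98 would have been needed to pass.

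Fa2h is a gene of few reads, and its level in 2D, solved from shrunken fold changes, was higher the larger the fold change of the table. It was 67.0 to 81.6 normalized reads by the Matrigel, fibrin and collagen I tables, and 131 by the printed one. When its 2D level came from the median of the 3 gel tables, rescaled to the printed one, the printed level was 681 against 77.0 in 2D, a log2 ratio of 3.14. The same computation, each time from the 3 tables not in question, gave log2 1.99 with collagen I, 0.77 in Matrigel and 0.29 with fibrin. This alternative was chosen after seeing the data, has no test and still rests on shrunken fold changes, those of the other tables. The genes with the most similar fold changes over the 4 comparisons, among 11175 with a base mean of at least 100 in each table, were the bile canaliculus phospholipid exporter Abcb4 (Euclidean distance 0.51), Olfm1 (0.66) and Cd300lb (0.74). Abcb4 was at log2 1.53 ± 0.24, 0.86 ± 0.28, 1.77 ± 0.27 and 2.22 ± 0.27 in Matrigel, fibrin, collagen I and printed cultures in the authors' deposited tables.

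Differences between microenvironments were tested for the 10 genes in 6 pairs, 60 differences in all, each as a difference in fold change with its variance summed from both tables, a normal p (two-sided) and adjustment over all genes of the pair. None passed. Of all genes, 1.05% passed for printed against fibrin, 0.662% for printed against collagen I, 0.435% for printed against Matrigel, 0.886% for fibrin against Matrigel, 0.329% for collagen I against Matrigel and 0.477% for collagen I against fibrin. At an unadjusted p under 0.05 there were 4 of the 10 genes for printed against fibrin (5.47% of all genes), 2 for printed against collagen I (5.36%) and 1 for printed against Matrigel (3.65%). There were 0 for fibrin against Matrigel (5.15% of all genes), collagen I against Matrigel (4.93%) and collagen I against fibrin (2.49%). All 7 involved the printed cultures. For Fa2h the difference of printed over fibrin was log2 1.45 (95% interval 0.55 to 2.34), with adjusted p = 0.11, and that over Matrigel 1.24 (0.41 to 2.06), with adjusted p = 0.33. For Scd1 the difference of printed over fibrin was 0.79 (0.21 to 1.38), with adjusted p = 0.32.

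For Scd2 the difference of printed over collagen I was 0.72 (0.11 to 1.32) and that over fibrin 0.65 (0.05 to 1.25), with adjusted p = 0.72 and 0.79. For Elovl6 the differences had the opposite sign, -0.71 (-1.33 to -0.08) over collagen I and -0.67 (-1.29 to -0.05) over fibrin, with adjusted p = 0.80 and 0.78. The shared 2D libraries make these standard errors too large. With a correlation of 0.5 between the fold changes, Fa2h passed against fibrin (adjusted p = 0.00058) and Matrigel (0.0034), Scd1 against fibrin (0.0074) and Scd2 against collagen I (0.038), while no Elovl6 difference passed. That correlation was set, not estimated, and it lowers the standard error of every gene. The share of all genes that passed with it is not given here.

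**Figure D3:**
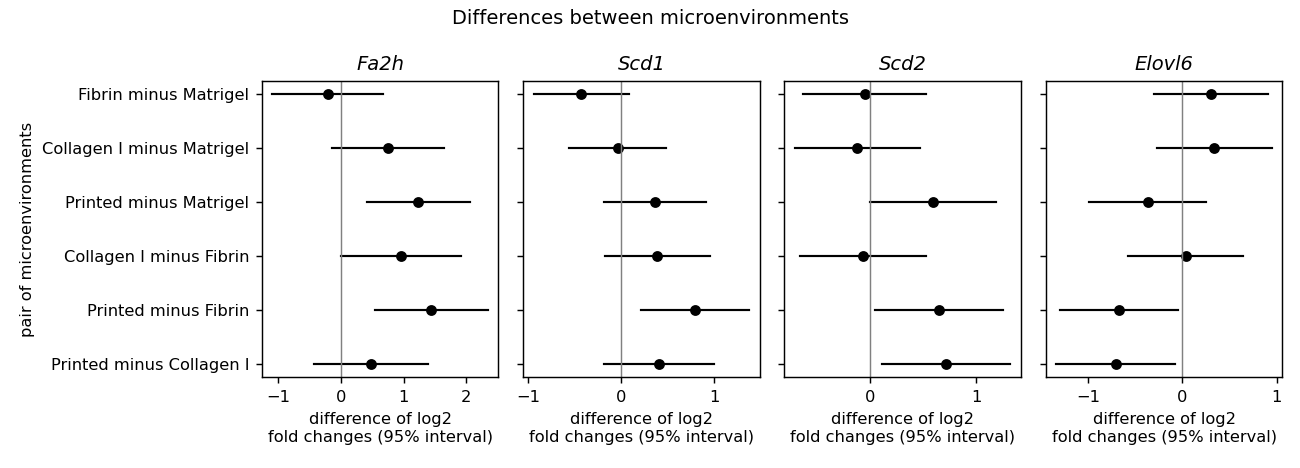
Difference between microenvironments in the log2 fold change of 4 genes, with 95% intervals, for 6 pairs. For Fa2h the interval lies above 0 against Matrigel and fibrin, and for Elovl6 it lies below 0 in print against fibrin and collagen I; none passed after adjustment over all genes.

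The rest of the pathway was described with lists. Of all genes with an adjusted p, 4.03%, 5.19%, 6.51% and 2.51% rose in Matrigel, fibrin, collagen I and printed cultures. The shares that fell were 2.32%, 3.11%, 4.65% and 0.675%. List counts near these shares are no result about a list. Of 30 other fatty acid enzymes, 28, 29, 28 and 29 had an adjusted p in that order. Among them 3 rose in Matrigel, 2 with fibrin, 2 with collagen I and 2 in the printed cultures, and none fell. The medians over all 30 were log2 0.04, 0.16, 0.07 and 0.07. The acyl-CoA synthetase gene Acsl5 rose in Matrigel (0.78 ± 0.19), with fibrin (0.83 ± 0.21) and with collagen I (0.91 ± 0.22) in the authors' deposited tables. Acsl3, another synthetase, rose with fibrin (0.68 ± 0.24) and in print (0.94 ± 0.21) in the authors' deposited tables. Cyb5a, the cytochrome that hands electrons to desaturases, rose in Matrigel (0.95 ± 0.20) and with collagen I (1.0 ± 0.24) in the authors' deposited tables.

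Of 14 genes that supply NADPH and acetyl-CoA, 7, 2, 7 and 2 rose in Matrigel, fibrin, collagen I and printed cultures, and Me3 fell in Matrigel. The medians of log2 0.52, 0.42, 0.56 and 0.38 stood beside 0.24, 0.31, 0.36 and 0.53 for the 10 enzymes. G6pdx, the first enzyme of the pentose phosphate pathway, rose in all 4: by log2 1.02 ± 0.16, 0.89 ± 0.19, 1.31 ± 0.20 and 0.82 ± 0.20 in the authors' deposited tables. Malic enzyme Me1 rose in Matrigel (0.52 ± 0.17), with collagen I (0.74 ± 0.22) and in print (0.92 ± 0.20) in the authors' deposited tables. Cytosolic isocitrate dehydrogenase Idh1 rose in Matrigel (0.74 ± 0.21) and with collagen I (1.0 ± 0.25) in the authors' deposited tables.

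Genes of cholesterol synthesis, the branch under SREBP2, rose in 7, 13, 15 and 9 of 23 cases in the same order and none fell, with medians of log2 0.50, 0.69, 0.80 and 0.52. Hmgcs1, which opens that pathway, was at log2 0.68 ± 0.20, 1.31 ± 0.20, 1.25 ± 0.20 and 0.93 ± 0.20 in the authors' deposited tables. Of 25 genes of fatty acid oxidation, 0 rose and 0 fell in any table, with medians of log2 0.07, 0.04, 0.14 and -0.06. Of 11 LXR targets, 8 of which had an adjusted p in each table, 1, 0, 1 and 2 rose and 1, 1, 1 and 0 fell. The cholesterol exporter Abca1 fell in the 3 gels, to -1.57 ± 0.20 in Matrigel, -0.83 ± 0.22 with fibrin and -0.70 ± 0.24 with collagen I in the authors' deposited tables. In print Abca1 rose by 0.80 ± 0.21 and its relative Abcg1 by 3.80 ± 0.26 in the authors' deposited table. Abcg1 also rose with collagen I (1.08 ± 0.37), and the phospholipid remodelling gene Lpcat3 rose in Matrigel (0.57 ± 0.17), in the authors' deposited tables.

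**Figure D4:**
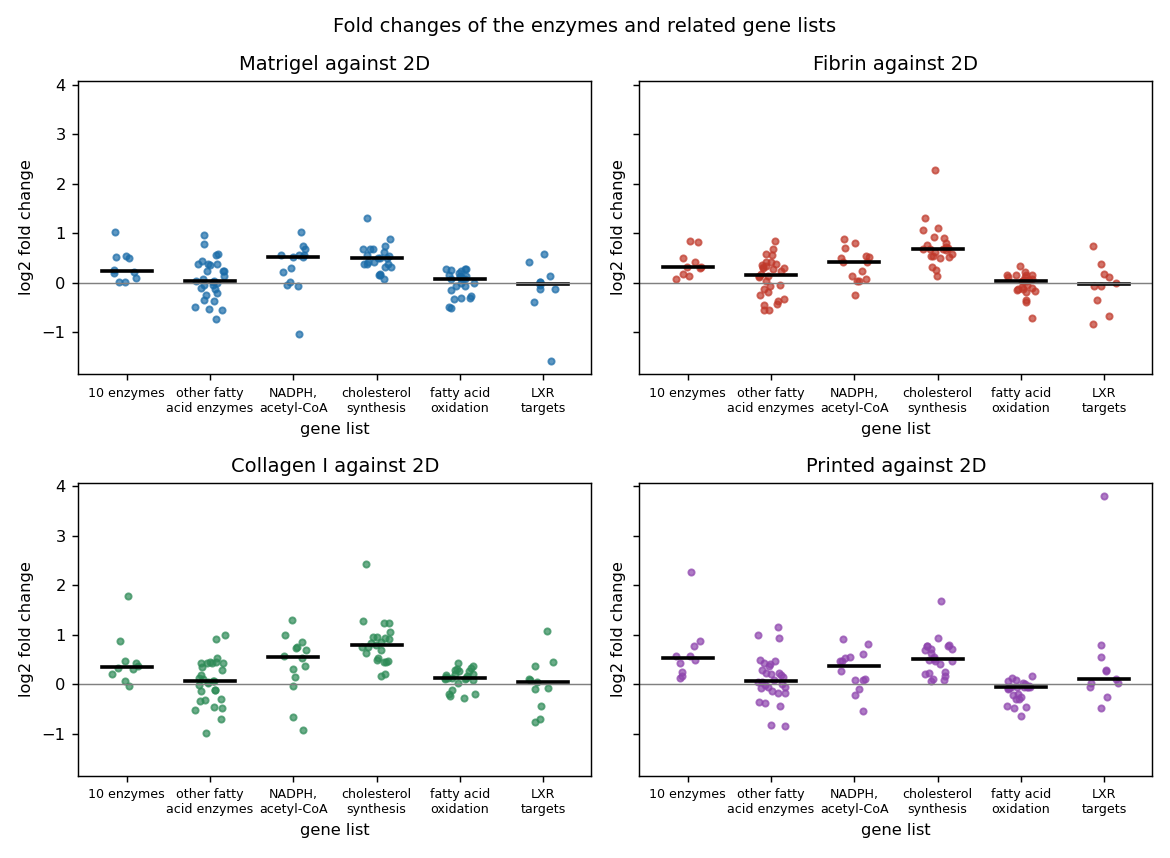
Log2 fold changes against 2D of the 10 enzymes and of 5 related lists, 1 point per gene and the median as a black line. The median of the 10 enzymes is 0.24 in Matrigel and 0.53 in the printed cultures, and that of cholesterol synthesis is 0.80 with collagen I.

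Of sphingolipid genes, which include those that take up 2-hydroxy fatty acids, 19, 19, 20 and 19 had a p-value in Matrigel, fibrin, collagen I and printed cultures. Among them 3 rose in Matrigel, 2 with fibrin, 3 with collagen I and 3 in print, and none fell. The medians of the list were log2 0.04, 0.06, 0.11 and 0.11 in that order. Sgms1, Sgms2 and B4galt6 were the only genes of the list that rose. Sgms2, a sphingomyelin synthase, rose in Matrigel (1.26 ± 0.18), with collagen I (1.08 ± 0.22) and in print (1.42 ± 0.21), and was at 0.42 ± 0.21 with fibrin in the authors' deposited tables. Its relative Sgms1 rose in all 4, by log2 0.96 ± 0.17, 1.11 ± 0.20, 0.82 ± 0.22 and 0.76 ± 0.21 in the authors' deposited tables. The lactosylceramide synthase gene B4galt6 also rose in all 4, by 1.28 ± 0.18, 0.78 ± 0.20, 0.70 ± 0.22 and 0.80 ± 0.20 in the authors' deposited tables. Glycerolipid and lipid droplet genes, 32 in all, moved in few cases, and 27 had an adjusted p in each table. Of these, 1, 1, 0 and 1 rose and 2, 0, 1 and 0 fell. Lipe rose in Matrigel (0.69 ± 0.22), Mgll with fibrin (1.17 ± 0.27) and Lpin2 in print (0.70 ± 0.22) in the authors' deposited tables. Hilpda (-0.63 ± 0.21) and Abhd5 fell in Matrigel in the authors' deposited table. Dgat2, which makes triglycerides, fell with collagen I, to -0.85 ± 0.24 in the authors' deposited table. Among 16 genes for fatty acid uptake, only 6, 7, 6 and 6 of which had an adjusted p, 1 rose in Matrigel and 1 in print, and 1 fell with fibrin and 1 with collagen I. The transporter gene Slc27a2 rose in Matrigel (0.66 ± 0.22) and fell with collagen I (-0.79 ± 0.28) in the authors' deposited tables.

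Of 34 regulators of lipogenesis, 33 of which had an adjusted p in each table, 3, 2, 4 and 2 rose, and 1 fell, with collagen I. The transcripts of SREBP1 and SREBP2 did not pass: Srebf1 was at log2 0.13 ± 0.16, -0.07 ± 0.19, -0.09 ± 0.21 and 0.30 ± 0.19, in the order Matrigel, fibrin, collagen I and printed, in the authors' deposited tables. Srebf2 was at 0.32 ± 0.16, 0.30 ± 0.21, 0.15 ± 0.20 and 0.39 ± 0.20 in the authors' deposited tables. Insig1, which holds SREBPs back in the endoplasmic reticulum and is itself a target of theirs, rose in all 4, by log2 0.71 ± 0.18, 1.76 ± 0.21, 1.33 ± 0.22 and 0.99 ± 0.23 in the authors' deposited tables.

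Mlxipl, the gene of ChREBP, rose in all 4 as well, by log2 1.0 ± 0.20, 0.88 ± 0.22, 0.94 ± 0.20 and 1.28 ± 0.20 in the authors' deposited tables. Mid1ip1, whose protein activates the carboxylase made by Acaca, rose in Matrigel (0.71 ± 0.20) and with collagen I (0.63 ± 0.22) in the authors' deposited tables. The SREBP escort Scap, the second Insig gene Insig2, and the LXR genes Nr1h2 and Nr1h3 passed in none, with values between -0.44 ± 0.41 (Nr1h3, collagen I) and 0.32 ± 0.20 (Insig2, printed) in the authors' deposited tables. Transcript levels of SREBPs say little of the cleaved, active proteins, which were not measured here.

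**Figure D5:**
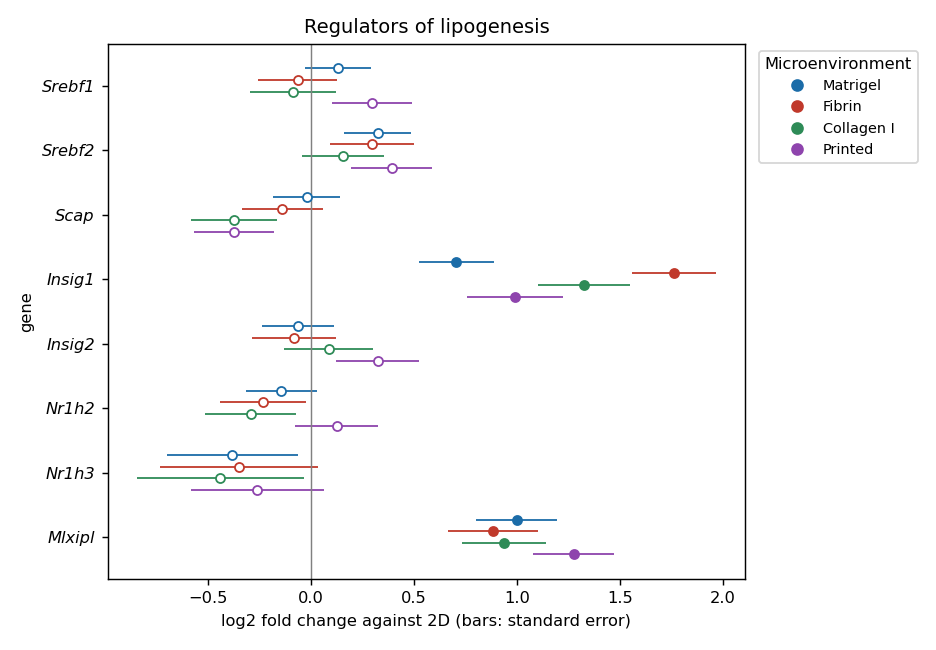
Log2 fold change against 2D of 8 regulators of lipogenesis, with the standard error as bars; filled points have an adjusted p under 0.05. Insig1 and Mlxipl lie above 0 with filled points in all 4 microenvironments, while Srebf1 and Srebf2 have open points.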

How the data were processed

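RNA of 15 libraries, 3 in each of 5 groups, was sequenced. The submitters' processing notes name DESeq2 1.22.1, featureCounts 1.6.3, STAR 2.6.0b-1, Trim Galore 0.4.3 and FastQC 0.72, with build mm10. Strand setting, annotation and any passage term stay not given in the sources used here. Base means are a deposited signal, read counts over size factors as averaged by the authors. The deposited fold change and its standard error are log2 values from the authors' fit. The deposited Wald statistic is a score, their ratio, from which the authors' two-sided p-value and its Benjamini-Hochberg adjusted p-value follow. Adjusting the deposited p-values again returned the deposited adjusted values within 6.3e-15.

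No test was refitted, since the tables hold 0 columns per library. The p-values rest on the spread between cultures of 1 line, which within each group differ in passage (35, 48 and 53). The same passages recur in all 5 groups, and whether the fit took up passage effects is not known. The levels in 2D and in a microenvironment were solved from base mean and fold change, and since the values show that the fold changes are shrunken, these levels are approximate. The median fold change of genes with a base mean of at least 100 was log2 0.01 to 0.04 per table. Computations used Python 3.11.15 and scipy 1.17.1. Transcript lengths and overlaps came from GENCODE M21 (GRCm38), gene coordinates and promoters from RefSeq; all 10 gene identifiers matched. The 10 genes and the lists were chosen with earlier results of these data known. All 10 genes are named in every comparison; of a list, those named passed in at least 2 comparisons or had one of the 2 largest changes in one at a base mean of at least 100, beside 8 regulators and the top marker of each cell type. Of genes that fit this rule, some were left out for length, and a few markers are counted but not reported here by name.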

Additional observations from a re-analysis of the deposited data

How the results depend on the processing

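No paired analysis was possible because the tables hold no value per library, and for the same reason no library could be left out. Of the genes that rose, the number in Matrigel was 2 and became 1 with all genes with a p-value or with centred fold changes, and 0 under the empirical null or at an adjusted p under 0.01. With fibrin and collagen I the numbers 1 and 2 became 0 and 0 under the empirical null. In the printed cultures the 3 became 2 under the empirical null and at an adjusted p under 0.01, losing Scd2. No gene fell under any of them. Requiring a base mean of at least 100 changed no call, but left Fa2h with fibrin, at a base mean of 92.6, without an adjusted p. Of the differences between microenvironments, 0 passed in each pair. With a correlation of 0.5 there were 1 for printed against Matrigel, 2 for printed against fibrin and 1 for printed against collagen I. Under the empirical null there were 1, 2 and 0 in these pairs and 1 for collagen I against fibrin, which was Fa2h. Shares of all genes that passed under either setting are not given here, so these counts have no background beside them. The cause of these changes was not tested, apart from the smaller standard error that the correlation sets. Levels implied by the other tables moved Fa2h in print from log2 2.26 to 3.14, and with fibrin from 0.82 to 0.29. Depth per library is unknown, and values for Fa2h rest on the fewest reads.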
